A study of Mus musculus with 24 samples.

Results

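The proteasome subunit genes described here were the protein-coding genes with a symbol of the Psma to Psmg series and at least 240 reads summed over 24 libraries. Of 55385 genes in the count files, 50 matched by name and 48 passed this minimum. Psma8, the testis alpha subunit, had 56 reads in all and Psmb11, the thymus beta subunit, had 8, so both were left out. The 48 genes comprised 14 constitutive 20S subunits, 3 immunoproteasome subunits, 17 subunits of the 19S particle, 6 activators or inhibitors, 7 assembly chaperones and Psmc3ip. Psmc3ip carries the name but encodes a meiotic recombination factor, not a subunit. All 48 passed the filter on low counts used for testing.

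The proteasome is the barrel-shaped protease that degrades proteins tagged with ubiquitin. Its 20S core stacks rings of alpha subunits around rings of beta subunits, and the beta subunits encoded by Psmb5, Psmb6 and Psmb7 cut the substrate. The 19S regulatory particle caps the barrel: a base of ATPases (the Psmc genes) unfolds the substrate, and a lid (most Psmd genes) removes the ubiquitin. Under interferon, and in haematopoietic cells, the catalytic subunits are replaced by Psmb8, Psmb9 and Psmb10, which gives the immunoproteasome that supplies peptides for major histocompatibility complex class I. In skeletal muscle the ubiquitin-proteasome route is known for its part in muscle wasting, where the ubiquitin ligases Fbxo32 (atrogin-1) and Trim63 (MuRF1) mark muscle proteins for degradation.

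RNA of gastrocnemius muscle from female C57BL/6J mice was sequenced in 6 groups of 4 mice. Young mice were 3 to 6 months of age, old mice 21 to 24 and oldest-old mice 27 to 29. At each age 1 group carried an AAV8 vector with GFP behind the liver-specific LP1 promoter, and further old and oldest-old mice carried the same vector with Klotho (AAV-Kl). Vector was given by tail vein at 3e+08 vector genomes per mouse, and muscle was taken 14 days later. The promoter drives the transgene in hepatocytes, so the muscle itself was not the tissue targeted. The sixth group was labelled young sham, and its procedure was not described further. Comparisons between groups used 4 libraries each, and the 3 age comparisons and the AAV-Kl comparisons share the GFP groups.

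Each library held 36415886 to 59733985 reads on genes. The 6 skeletal muscle markers were present in every library and summed to between 93380 (oldest-old GFP mouse 4) and 146936 CPM, which are read counts scaled to the library size by the TMM method. Other tissues were visible in some libraries. The summed level of 6 liver markers was 792 CPM in old GFP mouse 1, 75.7 CPM in old GFP mouse 4 and 125 CPM in old AAV-Kl mouse 4, and at most 20.3 CPM in any other library. The 6 keratinocyte markers summed to 311 CPM in young GFP mouse 3, 102 CPM in young sham mouse 4, 84.9 CPM in young GFP mouse 1 and 51.5 CPM in old AAV-Kl mouse 2. Ptprc, the pan-leukocyte marker CD45, was 24.9 CPM in young GFP mouse 3, 24.5 CPM in oldest-old AAV-Kl mouse 2 and 17.98 to 24.3 CPM in young sham mice 2 to 4, against 12.9 CPM or less elsewhere. In bulk tissue, fewer cells of a type and less RNA per cell cannot be told apart.

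Promoter sequences are shown for Psmd8 and Psmd4, the 19S genes with the largest age difference, and for Psmb8 and Psmb9, the immunoproteasome genes that varied most. Each is the 250 bases before the RefSeq transcription start in GRCm38.p6, written 5′ to 3′ on the gene's strand. Capitals mark a match to 1 of 2 motifs searched on both strands.
Psmd8 (chr7:29180674-29180923, minus strand): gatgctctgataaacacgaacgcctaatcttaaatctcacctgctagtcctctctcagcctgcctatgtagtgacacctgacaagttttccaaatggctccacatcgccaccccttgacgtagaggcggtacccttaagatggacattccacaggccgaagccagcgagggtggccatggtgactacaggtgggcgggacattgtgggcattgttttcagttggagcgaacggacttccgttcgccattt
Psmd4 (chr3:95042615-95042864, minus strand): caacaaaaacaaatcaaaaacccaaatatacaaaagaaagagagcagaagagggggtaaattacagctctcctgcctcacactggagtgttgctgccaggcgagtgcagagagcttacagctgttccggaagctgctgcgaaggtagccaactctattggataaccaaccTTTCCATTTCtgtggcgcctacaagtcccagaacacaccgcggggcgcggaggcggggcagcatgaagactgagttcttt
Psmb8 (chr17:34197945-34198194, plus strand): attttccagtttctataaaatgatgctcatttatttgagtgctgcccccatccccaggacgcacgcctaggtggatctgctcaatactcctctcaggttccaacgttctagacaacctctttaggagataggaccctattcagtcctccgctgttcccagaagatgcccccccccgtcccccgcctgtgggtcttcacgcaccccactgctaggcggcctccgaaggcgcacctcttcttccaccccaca
Psmb9 (chr17:34187331-34187580, minus strand): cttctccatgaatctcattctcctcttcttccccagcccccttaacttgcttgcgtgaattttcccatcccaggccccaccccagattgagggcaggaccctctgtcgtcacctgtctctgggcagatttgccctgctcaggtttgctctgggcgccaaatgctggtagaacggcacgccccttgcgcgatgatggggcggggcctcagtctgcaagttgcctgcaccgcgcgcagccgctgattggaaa

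The motifs were the antioxidant response element core TGACNNNGC, bound by Nfe2l1 and Nfe2l2, and the core of the interferon-stimulated response element, which is GAAA, any 2 bases and GAAA. The Psmd4 window held a match to the interferon core on the opposite strand (TTTCCATTTC), beginning 80 bases before the start. The Psmd8, Psmb8 and Psmb9 windows held no match. In the annotation used for gene positions, Psmb8 spans chr17:34197721-34201454 and Psmb9 spans chr17:34181987-34187764. Both windows lie inside these spans, so the stretch before the annotated start of either gene was not searched. A window was found for 41 of the 48 genes. The antioxidant core was in 5 of 41 (12.2%; Psmb5, Psmb6, Psmc6, Psmd12 and Psmd9) against 11.5% of 27025 promoters of the same length. The interferon core was in 3 of 41 (7.32%; Psmb3, Psmd4 and Psmd9) against 3.46% of those promoters.

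Apart from Psmc3ip, the constitutive subunits had the highest and the immunoproteasome subunits the lowest class medians of transcript level. Levels per length, in CPM per kb of the principal transcript averaged over 24 libraries, ran from 19.2 (Psma2) to 119 (Psmb6) in the constitutive 20S core and from 24.1 (Psmd13) to 103 (Psmd8) in the 19S particle. The catalytic subunits differed among themselves: Psmb6 was at 119, Psmb7 at 65.5 and Psmb5 at 32.6 CPM per kb. The immunoproteasome genes were far lower, at 6.16 for Psmb10, 2.02 for Psmb9 and 1.56 CPM per kb for Psmb8. The assembly chaperones ranged from 2.0 (Psmg3) to 13.8 (Psmg2). Among the activators, Psme4, which encodes PA200, was at 46.4, Psme3 at 32.0, and the interferon-inducible Psme1 and Psme2 at 19.6 and 14.5 CPM per kb. The inhibitor Psmf1 was at 4.06. Psme2b, a close copy of Psme2 that overlaps other annotated genes, was at 0.865 CPM per kb, and its reads are uncertain.

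**Figure D1:**
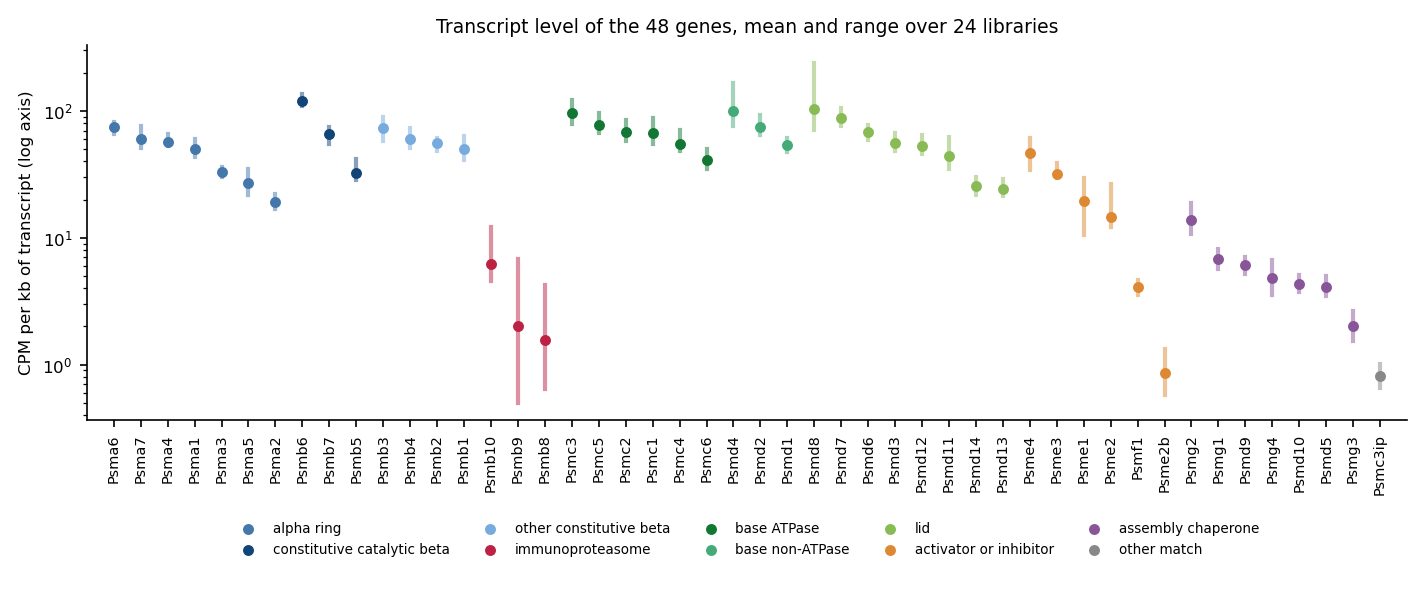
Level of each gene in CPM per kb of its principal transcript on a log axis. Points are means over 24 libraries, vertical bars run from the lowest to the highest library, and colours give the class. The constitutive subunits lie between 19.2 and 119, and the immunoproteasome genes lie at 6.16 or lower, and Psmb9 and Psmb8 have the widest bars.

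Most constitutive genes were steady, and Psmb8 and Psmb9 were the most variable. Over the 24 libraries the coefficient of variation had a median of 7.43% in the 14 constitutive 20S genes and 8.92% in the 17 genes of the 19S particle. It was 24.5% for Psmb10, 53.2% for Psmb8 and 64.4% for Psmb9. Psmb6 was the steadiest, at 4.75%. Psmd8 stood out in the 19S particle with 33.0%. The largest ratio between 2 group means within the 20S core was 1.29 (Psmb3), and within the 19S particle it was 1.77 (Psmd8).

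The young sham group was lowest in most constitutive genes. The young sham group had the lowest mean in 17 of 17 genes of the 19S particle and in 11 of 14 constitutive 20S genes, against 18.5% of all 17465 genes. The oldest-old AAV-Kl group had the highest mean in 11 of the 14 and in 9 of the 17, against 18.2% of all genes. In the 19S particle the highest mean was in oldest-old GFP mice for 6 genes and in old AAV-Kl mice for 2. These are ranks of group means, and not every pair of groups was tested.

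Within a group, constitutive genes were high or low together in the same mice. In the oldest-old GFP group, mouse 4 held the highest value in 26 of 31 constitutive 20S and 19S genes (83.9%), where it held the highest in 34.5% of all genes. Young sham mouse 1 was highest in 31 of 31 (100%; all genes 31.6%), young GFP mouse 4 in 26 of 31 (83.9%; all genes 25.6%) and old GFP mouse 3 in 23 of 31 (74.2%; all genes 24.6%). In the oldest-old AAV-Kl group, mouse 3 was highest in 29 of 31 (93.5%; all genes 31.9%) and mouse 2 was lowest in 24 of 31 (77.4%; all genes 29.6%). The genes are therefore not independent of each other in the counts that follow.

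The first question was whether proteasome transcripts change with age under the same vector. Between old and young GFP mice, none of the 48 genes had an adjusted p under 0.05 (edgeR quasi-likelihood test), where 3.51% of 17465 genes did. At an unadjusted p under 0.05 there was 1 gene, which was higher, against 17.9% of all genes in either direction and 10.3% higher. DESeq2 also called none after adjustment and 2 before (4.17%, against 18.1% of all genes). The direction was mostly upward: 34 were higher and 14 lower in old mice, where 50.7% of all genes were higher. The median log2 fold change was 0.05, against 0.00 over all genes. Without young GFP mice 1 and 3, which held keratinocyte transcripts, 26 were higher and 22 lower, with a median of 0.01. All 6 keratinocyte markers were lower in old than in young GFP mice at an unadjusted p under 0.05 and none at an adjusted one, and their part in the direction was not tested.

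The old GFP mice also held liver transcripts, all 6 markers having risen against young GFP mice. Without old GFP mice 1 and 4 the count at an unadjusted p under 0.05 was 3 (6.25%, against 13.1% of all genes). By class, 16 of 17 genes of the 19S particle were higher in old mice, with a median log2 difference of 0.08. Psmd8 had the largest difference, at 0.39. The 14 constitutive 20S genes had 10 higher and 4 lower (median 0.03), and the catalytic Psmb5, Psmb6 and Psmb7 differed by 0.03 or less in either direction. The gene under an unadjusted p of 0.05 was Psmd5, an assembly chaperone of the base. Psmd5 was at 16.2, 16.6, 17.7 and 15.7 CPM in young GFP mice and at 18.2, 19.8, 21.8 and 17.9 CPM in old GFP mice. The groups did not overlap, as in 15.8% of all genes, and the log2 fold change was 0.23 (SE 0.09, adjusted p = 0.185). Psmd5 was no longer under an unadjusted p of 0.05 with the first strand column of the count files (reads counted on 1 strand only), without young GFP mice 1 and 3, or without old GFP mouse 2, old GFP mouse 3 or young GFP mouse 4.

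Between oldest-old and young GFP mice, 2 of the 48 genes were higher and 1 was lower at an adjusted p under 0.05, where 7.64% of all genes were higher and 5.31% lower, 13% in all. Psmd8 and Psmd4 rose and Psmg1 fell. At an unadjusted p under 0.05 there were 9 higher and 4 lower, against 16.3% and 12.3% of all genes (28.6% in all). In total, 29 genes were higher and 19 lower, with a median log2 difference of 0.07 against 0.03 over all genes. The share past the adjusted threshold was below that of all genes. At the unadjusted threshold the share was close to it, 27.1% against 28.6%, and for higher genes alone 18.8% against 16.3%. The order turned in some other fits: 22.9% against 15.8% with no filter on low counts, and 27.1% against 24.2% without young GFP mouse 4.

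**Figure D2:**
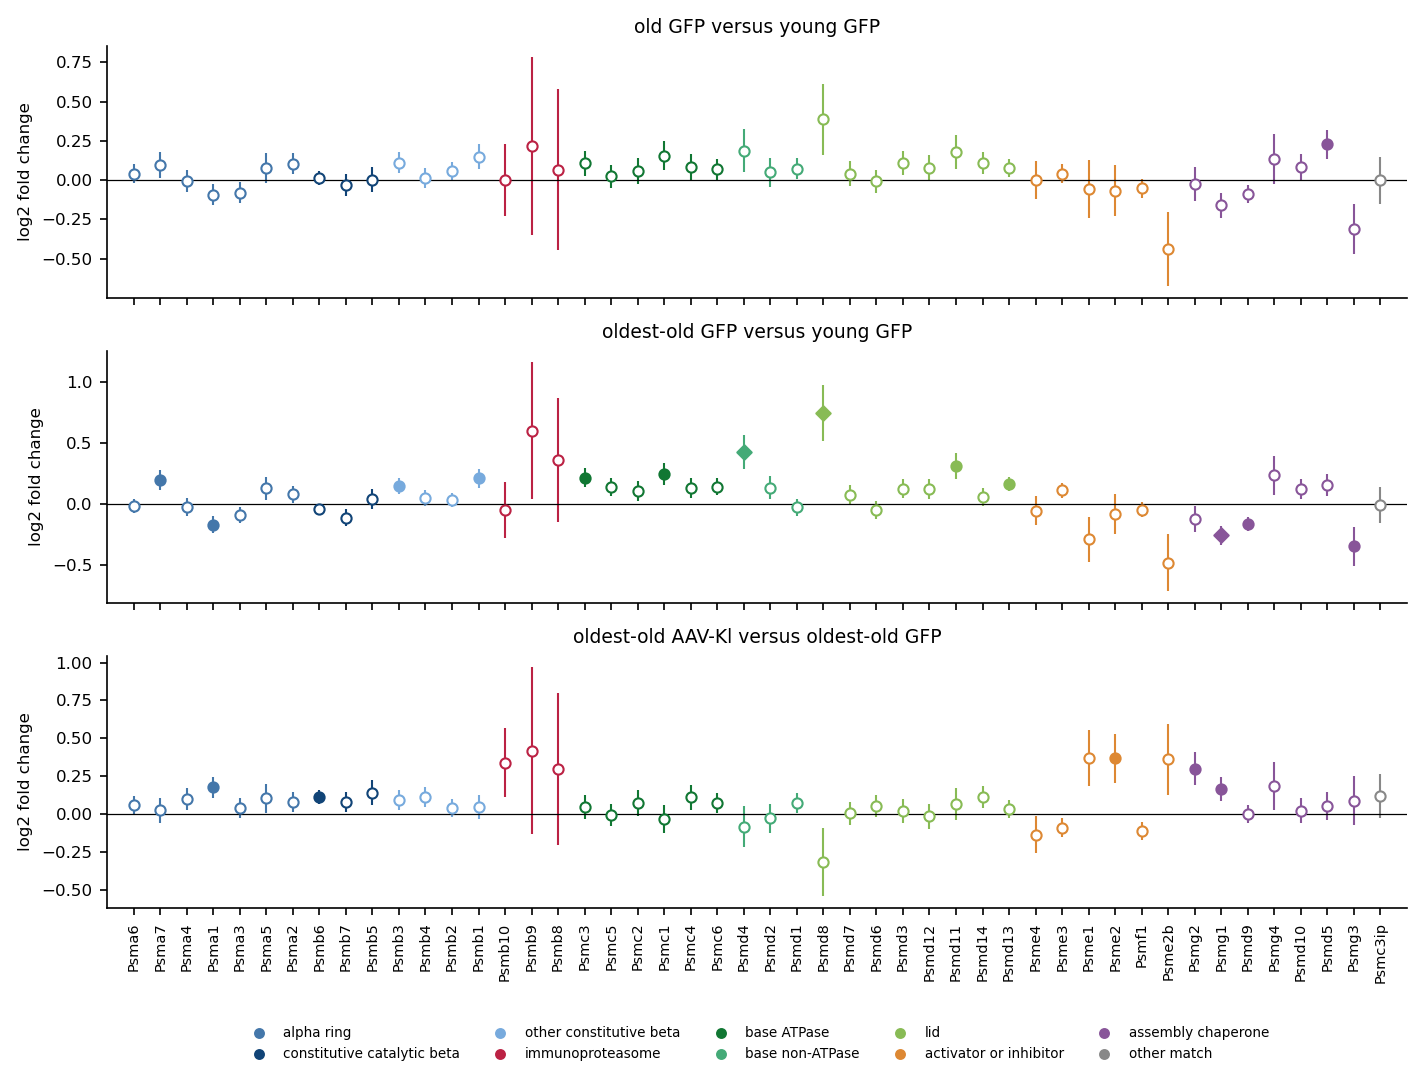
Log2 fold change of each gene in 3 comparisons, with bars of 1 standard error. Filled symbols have an unadjusted p under 0.05 and diamonds an adjusted p under 0.05 (edgeR); colours give the class. Psmd8 (0.74), Psmd4 (0.43) and Psmg1 (-0.26) are the diamonds in the middle panel, and Psmb9 and Psmb8 have the longest bars.

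Psmd8 encodes Rpn12, a subunit of the lid, at chr7:29174188-29180701 (GRCm38, minus strand). It was at 114, 118, 127 and 140.3 CPM in young GFP mice and at 149, 148, 169 and 371 CPM in oldest-old GFP mice. All 4 oldest-old mice lay above all 4 young mice, and mouse 4 lay far above the rest. The log2 fold change was 0.74 (SE 0.23, adjusted p = 0.0395). Without oldest-old GFP mouse 4, the oldest-old mean was 155 ± 12.1 CPM (SD, n = 3) in place of 209 ± 108 CPM (SD, n = 4), the log2 fold change was 0.30 and the adjusted p was 0.162. The call was also lost without any 1 of the 4 young GFP mice, with log2 fold changes of 0.70 to 0.79 and adjusted p values of 0.0996 without mouse 1, 0.0900 without mouse 2, 0.0812 without mouse 3 and 0.0642 without mouse 4. The other groups of aged mice were also above the young groups in their means: 163 ± 20.4 CPM in old GFP, 169.8 ± 14.6 in old AAV-Kl and 168 ± 32.7 in oldest-old AAV-Kl, against 118 ± 11.9 in young sham (SD, n = 4 each).

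Psmd4 encodes Rpn10, a ubiquitin receptor of the 19S particle, at chr3:95032694-95042614 (minus strand). It was at 107, 110.3, 116 and 128 CPM in young GFP mice and at 129, 134, 137 and 220.1 CPM in oldest-old GFP mice. The groups did not overlap, although the highest young and the lowest oldest-old value were close. The log2 fold change was 0.43 (SE 0.14, adjusted p = 0.0496). Without oldest-old GFP mouse 4 it was 0.19 (adjusted p = 0.2075), and without mouse 3 the adjusted p was 0.0540. Leaving out young GFP mouse 1, 2, 3 or 4 gave adjusted p values of 0.1255, 0.117, 0.106 and 0.0669. In the old AAV-Kl group Psmd4 was within a narrow range, 132 to 135 CPM.

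Psmg1 encodes a chaperone that begins the assembly of the alpha ring, at chr16:95979933-95990960 (minus strand). It was at 7.09, 7.28, 8.56 and 7.80 CPM in young GFP mice and at 6.503, 6.47, 6.89 and 5.87 CPM in oldest-old GFP mice. All oldest-old mice lay below all young mice, and the log2 fold change was -0.26 (SE 0.08, adjusted p = 0.0391). The difference kept its size when single mice were left out (-0.31 to -0.23). The adjusted p was above 0.05 without oldest-old GFP mouse 1 (0.0542) or 4 (0.0776) and without young GFP mouse 3 (0.0793) or 4 (0.0692). The old GFP mice lay between, at 6.88 ± 0.228 CPM.

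**Figure D3:**
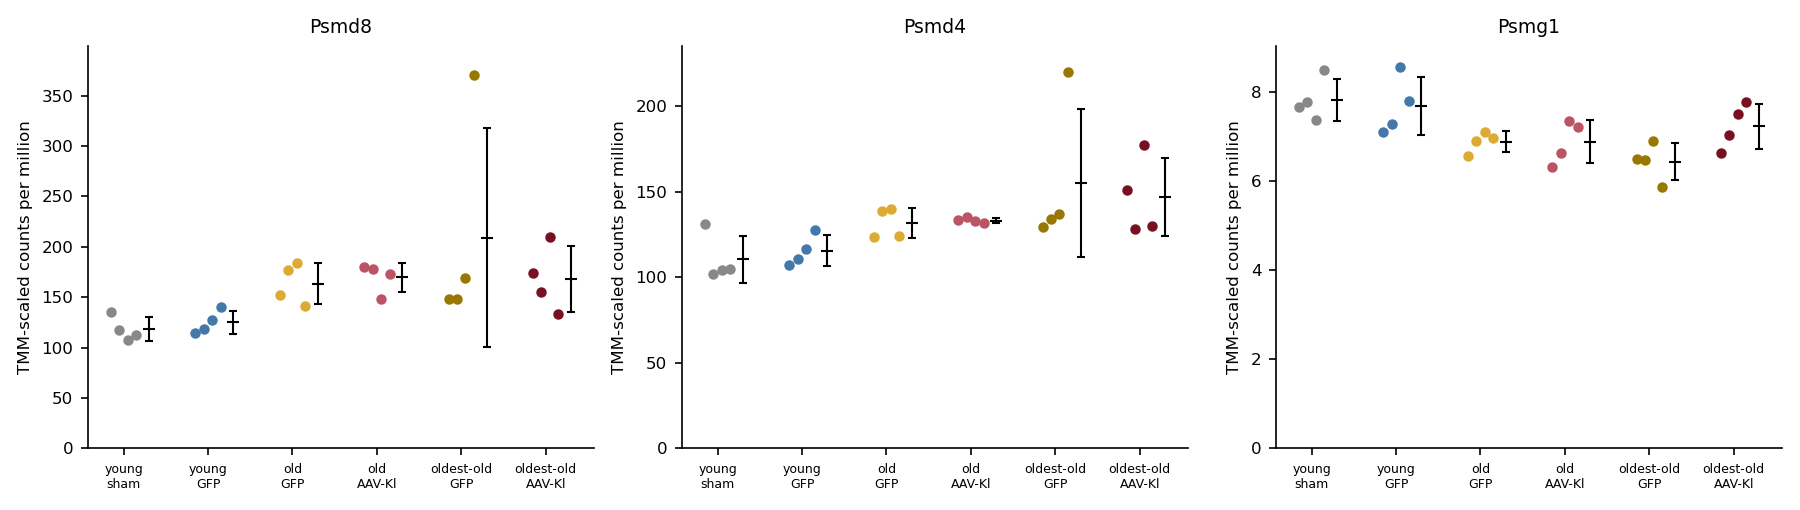
TMM-scaled CPM of Psmd8, Psmd4 and Psmg1 in the 6 groups. Each point is a mouse, and the black mark with bars is the mean and SD of 4 mice. In the oldest-old GFP group mouse 4 is at 371 CPM for Psmd8 and at 220.1 CPM for Psmd4, and for Psmg1 it is the lowest of its group at 5.87 CPM.

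Another 10 genes had an unadjusted p under 0.05 but did not pass adjustment. Higher in oldest-old mice were the lid subunits Psmd11 (log2 difference 0.31, SE 0.11, adjusted p = 0.0660) and Psmd13 (0.16), the ATPases Psmc1 (0.24) and Psmc3 (0.21), and the 20S subunits Psmb1 (0.21), Psma7 (0.20) and Psmb3 (0.14). Lower were Psmg3 (-0.35), the alpha subunit Psma1 (-0.17) and the chaperone Psmd9 (-0.17). All 6 base ATPases were higher, by 0.10 to 0.24. Of the 7 assembly chaperones 3 were higher and 4 lower, with a median of -0.13. Of the 6 activators and inhibitors 5 were lower, none with a p under 0.05: Psme2b was at -0.48, Psme1 at -0.29 and Psme4 at -0.06.

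These counts changed without oldest-old GFP mouse 4 and without young GFP mice that held transcripts of other tissues. Without oldest-old GFP mouse 4, no gene passed adjustment, and the split was 25 higher and 23 lower (median 0.02). At an unadjusted p under 0.05 there was 1 higher and 7 lower (16.7% in all), against 12.8% of all genes higher and 25% in all. In oldest-old GFP mouse 4 the skeletal muscle markers had their lowest sum of all libraries, Ptprc was at 3.47 CPM, and Psme1 was at 11.7 CPM against 19.4, 22.1 and 19.9 CPM in its group. Without young GFP mice 1 and 3, which held keratinocyte transcripts (5 of the 6 markers fell in oldest-old against young GFP mice), no gene passed adjustment, and 1 higher and 4 lower had an unadjusted p under 0.05. In that fit 10.9% of all genes were higher and 20.7% were called in all. Leaving out single mice gave 1 call without young GFP mouse 1 or 2, none without mouse 3 or 4, 2 calls without oldest-old GFP mouse 1 or 3 and 4 without mouse 2. Fitting the 8 libraries alone also gave no adjusted call. Adjusted calls over all genes moved too, from 1335 higher and 928 lower. Without young GFP mouse 1, 2, 3 or 4 they were 862 and 504, 961 and 876, 905 and 905, and 790 and 633. Without oldest-old GFP mouse 1, 2, 3 or 4 they were 938 and 716, 1227 and 1172, 1069 and 901, and 884 and 719. They were 342 and 281 without young GFP mice 1 and 3, and 797 and 452 with the 8 libraries.

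From old to oldest-old, none of the 48 genes had an adjusted p under 0.05, and neither did any of the 17465 genes (0.00%). None had an unadjusted p under 0.05, against 10.6% of all genes. In DESeq2 no member was called before or after adjustment. In this comparison 26 were higher and 22 lower, where 54.1% of all genes were higher. Again 14 of 17 genes of the 19S particle were higher (median 0.07) and 8 of 14 constitutive 20S genes were lower (median -0.02). Without oldest-old GFP mouse 4 the split became 13 higher and 35 lower, and without old GFP mice 1 and 4 it became 18 higher and 30 lower.

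The second question was whether AAV-Kl alters these transcripts at each age. In old mice none of the 48 genes was past an unadjusted or adjusted p of 0.05, where 1.90% of all genes had an unadjusted p under 0.05 and 0.00% an adjusted one. DESeq2 called none at either threshold. Of the 48, 32 were higher with AAV-Kl (median log2 difference 0.02), where 52.7% of all genes were. Without old GFP mice 1 and 4, which held liver transcripts, the direction turned, with 16 higher and 32 lower (median -0.03). The constitutive 20S genes differed between old AAV-Kl and old GFP mice by -0.04 to 0.06 on the log2 scale and the 19S genes by -0.03 to 0.08. Psmb6 was at 94.7, 94.6, 96.8 and 94.4 CPM with AAV-Kl and at 97.1, 92.9, 101 and 94.1 CPM with GFP, so the groups overlapped. The SE of these differences was 0.05 for Psmb6 and 0.08 for Psmb5, so differences of this size were not detectable.

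In oldest-old mice, AAV-Kl against GFP gave no gene with an adjusted p under 0.05, where 0.0115% of all genes passed. At an unadjusted p under 0.05 there were 5 higher and none lower, against 3.60% and 3.58% of all genes (7.18% in all). DESeq2 gave 6 before (12.5%, against 7.41% of all genes) and none after adjustment. In all, 39 of 48 were higher, where 52.4% of all genes were, with a median log2 difference of 0.07 against 0.01. All 14 constitutive 20S genes were higher (0.03 to 0.18) and all 7 assembly chaperones were at or above 0.00. Of the 19S genes 11 were higher and 6 lower, and Psmd8 was at -0.32. That direction turned without oldest-old GFP mouse 4: the Psmd8 mean was then 155 ± 12.1 CPM with GFP (SD, n = 3) against 168 ± 32.7 CPM with AAV-Kl (SD, n = 4).

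The 5 genes were Psmg2 (log2 difference 0.30, SE 0.11), a partner of Psmg1 in alpha-ring assembly, Psme2 (0.37, SE 0.16), Psma1 (0.18, SE 0.07), Psmg1 (0.17, SE 0.08) and Psmb6 (0.11, SE 0.05), with adjusted p values of 0.634 to 0.694. Psmg2 was at 19.97, 14.9, 17.98 and 14.1 CPM with AAV-Kl and at 15.3, 13.2, 14.5 and 11.4 CPM with GFP. Psma1 was at 65.7, 60.1, 72.0 and 58.7 CPM with AAV-Kl and at 60.5, 58.6, 55.9 and 52.0 CPM with GFP. The groups overlapped in both genes. Psme2 was at 13.5, 25.4, 13.8 and 13.9 CPM with AAV-Kl and at 13.97, 13.3, 12.5 and 11.9 CPM with GFP. Without AAV-Kl mouse 2 its log2 difference was 0.09.

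The count depended on which oldest-old mice were included. It was 3 (6.25%) without oldest-old GFP mouse 1, against 9.13% of all genes, and 3 without mouse 4, against 4.62% of all genes. Without GFP mouse 4 and AAV-Kl mouse 2 together, a choice made after seeing the values of these genes, 16 genes were higher at an unadjusted p under 0.05 and none lower (33.3%; 2.7% of 17661 genes were higher), and again none passed adjustment. Without AAV-Kl mouse 3, in which most constitutive genes were highest, 29 of 48 were higher and the median was 0.02. In that fit 4 had an unadjusted p under 0.05 (8.33%, against 7.11% of all genes). The AAV-Kl effect in oldest-old minus that in old mice was tested as an interaction and gave no adjusted call (0.00% of all genes) and 1 gene at an unadjusted p under 0.05, Psmg2 (0.36, SE 0.15), against 5.12% of all genes in either direction and 2.39% higher. Of the 48 estimates 33 were above 0, where 50% of all genes were, and the median was 0.05. The split was 25 and 23 (median 0.01) with the first strand column, 26 and 22 (0.02) without oldest-old AAV-Kl mouse 3 and 44 and 4 (0.11) without oldest-old GFP mouse 4. DESeq2 gave 2 before (4.17%, against 5.09% of all genes) and none after adjustment. The 14 constitutive 20S genes had positive interaction estimates of 0.045 to 0.18.

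The third comparison set young GFP against young sham mice. The sham procedure was not described, so the vector and its delivery cannot be told apart here. None of the 48 genes had an adjusted p under 0.05, where 0.472% of 17803 genes did, and 1 was higher at an unadjusted p under 0.05, against 13.4% in either direction and 4.80% higher. DESeq2 gave 4 before (8.33%, against 14.3% of all genes) and none after adjustment. The direction was nearly uniform: all 14 constitutive 20S genes and all 17 genes of the 19S particle were higher in GFP mice, with a median of 0.08 in each class, where 45.1% of all genes were higher. Psma1 was at 63.8, 61.7, 64.5 and 65.6 CPM in GFP mice and at 60.2, 56.6, 54.8 and 57.2 CPM in sham mice, without overlap (as in 9.76% of all genes). Its log2 difference was 0.16 (SE 0.07, adjusted p = 0.292). The immunoproteasome genes went the other way, at -0.80 (Psmb9), -0.64 (Psmb8) and -0.20 (Psmb10), none with a p under 0.05.

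Young sham mouse 1 differed from the other sham mice. Psmd4 was at 131 CPM in it and at 102, 104 and 105 CPM in mice 2 to 4, and Psmb5 was at 31.7 CPM against 26.3, 26.3 and 27.1 CPM. Ptprc was at 3.87 CPM in mouse 1 and at 21.6, 24.3 and 17.98 CPM in mice 2 to 4. The 4 adipocyte markers moved the same way, with a sum of 35.7 CPM in mouse 1 and 195, 219 and 264 CPM in mice 2 to 4. Without sham mouse 1, 14 of the 48 genes (29.2%) were higher in GFP mice at an unadjusted p under 0.05 and none passed adjustment. In that fit 9.64% of all genes were higher and 19.1% were called in either direction. The mice with high leukocyte and adipocyte markers were those with low Psmd4 and Psmb5, and the markers' part in the difference was not tested. Macrophage markers, 7 in all, summed to 51.5 to 85.2 CPM in young GFP and 87.9 to 168 CPM in young sham mice, with no marker at 0.

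The immunoproteasome genes varied widely between mice of the same group. Psmb8 was at 1.57, 3.56, 3.79 and 3.08 CPM in young sham, 1.71, 1.35, 3.51 and 1.11 in young GFP and 2.42, 1.87, 1.86 and 1.92 in old GFP mice. It was at 1.05, 4.11, 3.95 and 1.90 CPM in old AAV-Kl, 2.43, 2.27, 1.24 and 3.94 in oldest-old GFP and 1.499, 6.88, 1.96 and 1.82 in oldest-old AAV-Kl mice. Psmb9 was at 1.37, 3.85, 3.98 and 3.29 CPM in young sham, 1.87, 1.69, 2.89 and 0.676 in young GFP and 2.65, 2.11, 2.17 and 1.40 in old GFP mice. It was at 1.63, 4.50, 4.49 and 1.68 CPM in old AAV-Kl, 2.78, 2.002, 1.53 and 4.52 in oldest-old GFP and 1.62, 9.15, 2.11 and 1.61 in oldest-old AAV-Kl mice. The lowest library was old AAV-Kl mouse 1 for Psmb8 and young GFP mouse 4 for Psmb9, and oldest-old AAV-Kl mouse 2 was the highest for both. Psmb10 ran from 5.95 CPM (old AAV-Kl mouse 1) to 15.9 CPM, again in oldest-old AAV-Kl mouse 2. In each comparison tested, the groups overlapped in all 3 genes.

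The activators were read beside them. Psme1 and Psme2 encode the PA28 cap, which like the immunoproteasome is interferon-inducible. The mean of Psme1 lay between 21.5 ± 0.653 CPM (old GFP) and 23.6 ± 7.13 CPM (oldest-old AAV-Kl) in 5 groups and at 18.3 ± 4.55 CPM in oldest-old GFP mice (SD, n = 4 each), where mouse 4 was lowest at 11.7 CPM. It was at 21.2, 32.7, 15.6 and 24.8 CPM in oldest-old AAV-Kl mice, with mouse 2 again highest. Psme2 lay between 12.9 and 14.1 CPM in the group means other than oldest-old AAV-Kl (16.7 ± 5.82 CPM). Psme4, the PA200 cap, was at 273, 249.8, 256 and 397 CPM in oldest-old GFP and at 273, 221, 295 and 284 CPM in oldest-old AAV-Kl mice, and overlapped in all comparisons. None of the 3 passed adjustment in any comparison.

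**Figure D4:**
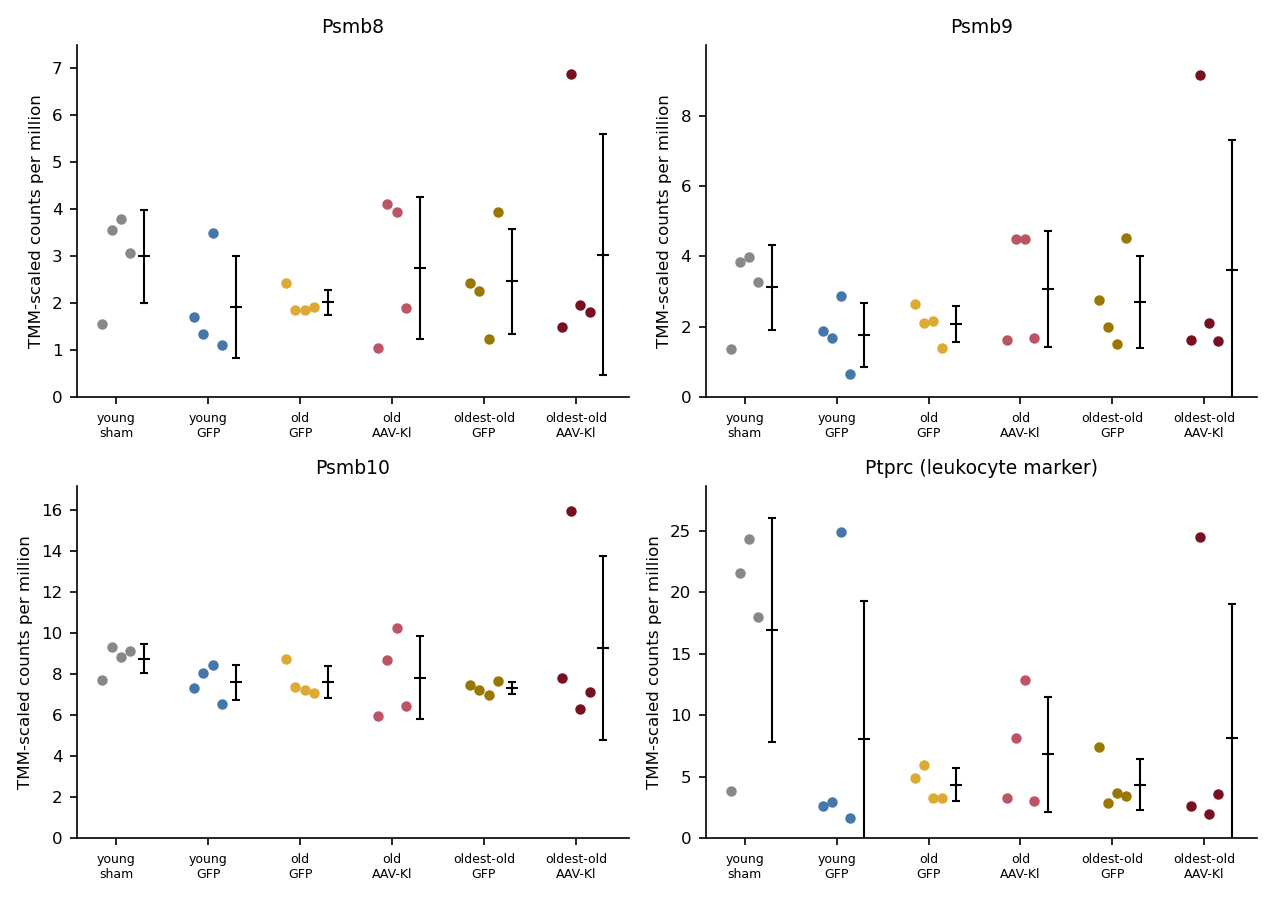
TMM-scaled CPM of Psmb8, Psmb9, Psmb10 and the leukocyte marker Ptprc in the 6 groups. Each point is a mouse and the black mark with bars is the mean and SD of 4 mice; bars that would run below 0 are cut at the axis. Oldest-old AAV-Kl mouse 2 is the highest for each immunoproteasome gene, at 6.88, 9.15 and 15.9 CPM, and is at 24.5 CPM for Ptprc.

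No immunoproteasome gene had an unadjusted p under 0.05 in any of the 7 tests. Between oldest-old and young GFP mice Psmb9 differed by 0.60 (SE 0.56, adjusted p = 0.525), Psmb8 by 0.36 (SE 0.51) and Psmb10 by -0.05 (SE 0.23). With AAV-Kl in old mice the differences were 0.56 (SE 0.56), 0.45 (SE 0.51) and 0.04 (SE 0.23) for the same genes. With AAV-Kl in oldest-old mice they were 0.42 (SE 0.55), 0.30 (SE 0.50) and 0.34 (SE 0.23), and without AAV-Kl mouse 2 they turned to -0.61, -0.49 and -0.05. The 9 other interferon and class I genes described, Tap1 and B2m among them, had a median log2 difference of 0.24 between oldest-old and young GFP mice (8 of 9 higher) and of -0.39 between young GFP and young sham mice (none higher), and none passed adjustment in any comparison. Psmb9 at 0.60 and Psmb10 at 0.34 exceeded their SE without an unadjusted p under 0.05 (edgeR). The smallest detectable difference was therefore larger than 1 SE.

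Psmb8, Psmb9 and Psmb10 replace Psmb5, Psmb6 and Psmb7 at the same places in the ring. The ratio of reads within a library compares each pair without scaling between libraries. It is not corrected for transcript length, which is 1628 bases for Psmb8 and 899 for Psmb5. It is therefore not a proportion of transcripts. It does not measure the exchange of subunits in the protein complex, and it pools all cells in the tissue, leukocytes among them. Psmb8 reads were 11.1% ± 4.27 of Psmb5 reads in young sham, 6.70% ± 3.75 in young GFP, 7.01% ± 0.888 in old GFP, 9.89% ± 5.69 in old AAV-Kl, 8.37% ± 3.57 in oldest-old GFP and 9.32% ± 7.85 in oldest-old AAV-Kl mice (SD, n = 4 each). Psmb9 reads were between 1.87% (young GFP) and 3.75% (oldest-old AAV-Kl) of Psmb6 reads, and Psmb10 between 9.79% (young GFP) and 12.6% (oldest-old AAV-Kl) of Psmb7 reads, as group means. None of the 18 differences in log2 ratio had a p under 0.05 in the two-sided exact permutation test, which with 4 against 4 cannot go below 0.0286. The smallest was p = 0.171 (exact), for Psmb9 to Psmb6 in young GFP against young sham (-0.95, SE 0.59), and all adjusted values were 1.

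**Figure D5:**
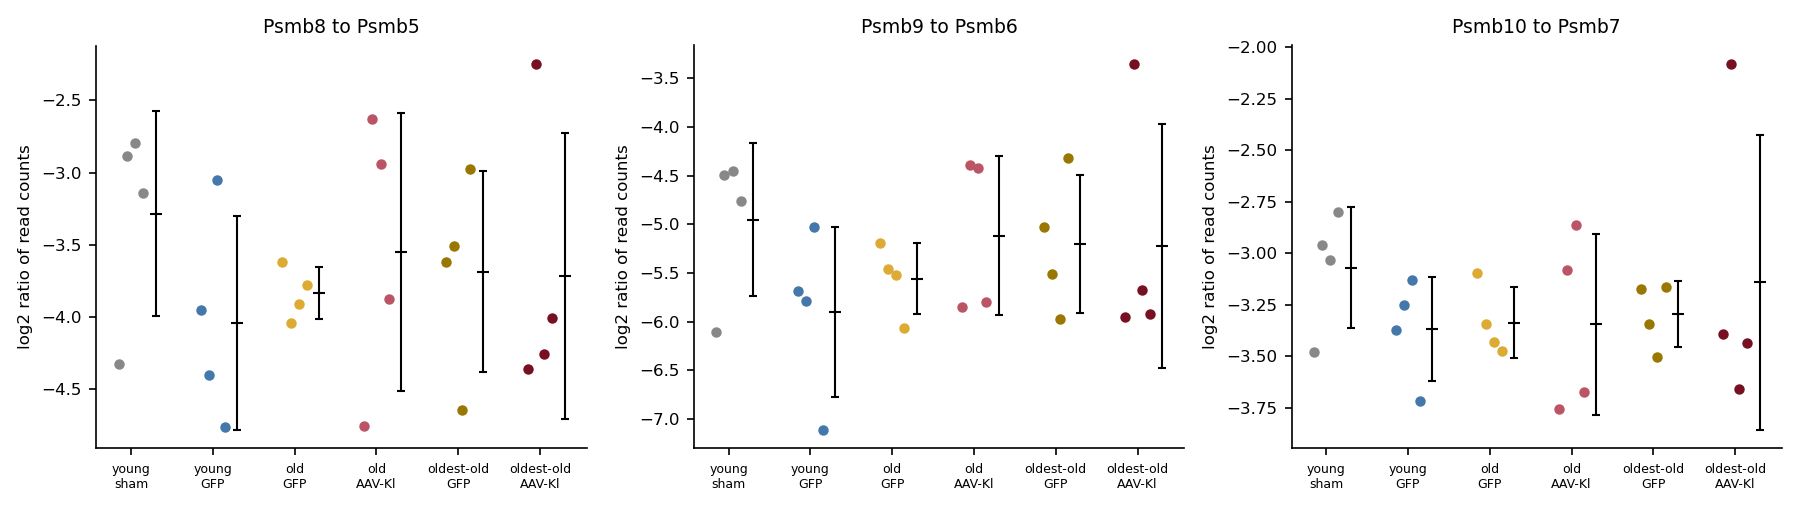
Log2 ratio of read counts of each immunoproteasome gene to the constitutive gene whose place it takes, by group. Points are mice and the black mark with bars is the mean and SD of 4 mice. Oldest-old AAV-Kl mouse 2 is highest in its group in each ratio, at -2.25, -3.35 and -2.08.

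Most libraries high in immunoproteasome transcripts were also high in the leukocyte marker Ptprc. This rests on 1 marker gene, and the same overlap was not computed for other genes. Of the 8 libraries with the highest sum of Psmb8, Psmb9 and Psmb10, 7 were among the 8 highest for Ptprc. The sum was 32.0 CPM in oldest-old AAV-Kl mouse 2, where Ptprc was at 24.5 CPM, and 18.7 and 17.3 CPM in old AAV-Kl mice 3 and 2, where Ptprc was at 12.9 and 8.15 CPM. The exception was oldest-old GFP mouse 4, with a sum of 16.1 CPM and Ptprc at 3.47 CPM. In it Tap1, the peptide transporter gene beside Psmb9, was at 12.97 CPM against 5.33, 4.13 and 3.66 CPM in its group. In oldest-old AAV-Kl mouse 2 the 7 T and natural killer markers summed to 16.3 CPM against 1.13 to 3.02 CPM in its group, the 6 B and plasma cell markers to 33.8 CPM against 5.90 to 13.1 CPM, and the 7 macrophage markers to 251 CPM against 50.1 to 104 CPM. The 4 adipocyte markers summed to 275 CPM in it against 19.3 to 34.5 CPM. In the oldest-old AAV-Kl group Cd3d and Nkg7 were at 0 in at least 1 library, and no macrophage, adipocyte or B and plasma marker was. The macrophage sum did not follow this order in every library. It was 72.9 CPM in young GFP mouse 3, where Ptprc was highest. In oldest-old GFP mouse 3 it was 116 CPM, with an immunoproteasome sum of 9.77 CPM. The part of the cells marked by these lists in the immunoproteasome values was not tested. Psmb9 and Tap1 overlap on opposite strands and the counts ignored strand, so reads in the shared stretch were not assigned to either gene. Psmb8, Psmb10 and Psme1 likewise overlap other annotated genes, and Psmd8, Psmd4 and Psmg1 overlap none.

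Among other genes of the pathway, 5 lists were read in oldest-old against young GFP mice, where 13% of all genes passed adjustment, 7.64% higher and 5.31% lower. Of the 4 regulators of proteasome genes 1 rose: Nfe2l1, the transcription factor that raises proteasome genes when the protease is inhibited, was higher in oldest-old than in young GFP mice. It was at 649, 587, 603 and 698 CPM in young and 830.2, 817, 711 and 891 CPM in oldest-old GFP mice, without overlap, as in 18.7% of all genes. The log2 fold change was 0.36 (SE 0.10, adjusted p = 0.0248). Of 14 proteasome-associated genes, 1 rose and 2 fell. Akirin2, which carries proteasomes into the nucleus, rose by 0.28 (SE 0.08, adjusted p = 0.0336). Sem1, a small lid subunit whose symbol lies outside the Psm series, fell by 0.29 on the log2 scale (SE 0.07, adjusted p = 0.0156). Ecpas, a proteasome adaptor and scaffold, fell by 0.34 on the log2 scale (SE 0.07, adjusted p = 0.00613).

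Of 10 muscle ubiquitin ligases, 2 rose in oldest-old against young GFP mice: Fbxo30 by 0.44 (SE 0.11, adjusted p = 0.0178) and Nedd4 by 0.20 (SE 0.06, adjusted p = 0.0499). Fbxo32 was at 0.82 (SE 0.27) with an adjusted p of 0.0511, which missed the threshold. Trim63 did not pass adjustment either. Of the 10 ligases 7 were higher and 3 lower. At an unadjusted p under 0.05 (edgeR) 3 were higher and 1 lower, against 16.3% and 12.3% of all genes. Fits without single mice are given here for the members only, so how far the calls of list genes depend on single mice is not shown. None of the 4 ubiquitin genes and none of the 9 interferon and class I genes passed adjustment in this comparison. In old against young GFP mice no gene of these 5 lists passed adjustment. In oldest-old AAV-Kl against GFP mice none passed either. Pomp, the maturation factor of the 20S core, was at 61.9, 61.0, 71.1 and 58.6 CPM with AAV-Kl and at 53.4, 53.8, 51.5 and 50.3 CPM with GFP, without overlap, as in 2.66% of all genes. Its log2 difference was 0.27 (SE 0.06, adjusted p = 0.344). Nfe2l2 rose in young GFP against young sham mice, from 51.1, 50.6, 55.2 and 56.7 CPM to 92.8, 87.0, 78.6 and 74.0 CPM (log2 fold change 0.64, SE 0.10, adjusted p = 0.0118). It was the one gene of the 5 lists that passed in that comparison.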

How the data were processed

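Gastrocnemius RNA-seq counts of 24 libraries (6 groups of 4 mice, grouped by their labels) were used as the authors deposited them: whole numbers of reads per gene from STAR, aligned to GRCm38/mm10. The unstranded column was taken, since the strand columns held equal shares (49.8% to 50.4%). Of all reads, 74.7% to 77.0% lay on genes. Each library had 36415886 to 59733985 such reads, and counting error was larger for members with few reads (fewest in Psme2b, 863 reads over all libraries). Reads in stretches where genes overlap are left out by this counter. The aligner's version and the annotation release are not given in the sources used here. Symbols, transcript lengths and positions came from GENCODE release M21, and promoters from RefSeq.

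Tests used edgeR 4.0.16 (R 4.3.3): TMM scaling, filterByExpr, the quasi-likelihood test with 1 coefficient per group, and Benjamini-Hochberg adjustment over all genes that passed the filter. A fit over the 20 libraries of GFP and AAV-Kl mice (17465 genes) gave the age, AAV-Kl and interaction comparisons, and a fit over 24 libraries (17803 genes) gave young GFP against young sham. Ratios of reads within a library were compared by two-sided exact permutation tests, with 0.5 added to each count and adjustment over 18 comparisons. Members are not replicates, and no test was made over the list. Each library is labelled as a separate sample, and p-values measure the spread between these samples.

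The alternatives were DESeq2 1.42.0, DESeq2 size factors, no filter on low counts, the first strand column, only the groups compared, all 24 libraries, a replicate block, a pseudocount of 1, leaving out each library, and leaving out the libraries with liver or skin transcripts. Leaving out oldest-old GFP mouse 4 with oldest-old AAV-Kl mouse 2 was added after seeing the data. The genes named were Psmb5 to Psmb10, Psme1, Psme2 and Psme4, every member with an adjusted p under 0.05, up to 4 members higher and 4 lower per comparison with the smallest unadjusted p under 0.05, and up to 4 pathway genes a list with an adjusted p under 0.05. Others, such as Pomp, Fbxo32, Tap1 and the further members in oldest-old against young GFP mice, were chosen after their values were seen. The members and lists were chosen with earlier results of these data known. The scripts were tested on simulated data. Paaf1 was not analysed here. 1 further item is not reported here.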

Additional observations from a re-analysis of the deposited data

Results flagged for a closer look

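For 15 of 132 sets of 4 libraries, the highest or lowest library lay further from the other 3 than Dixon's test allows. Chance gives about 1 in 20 for independent sets, but these sets were not independent. Some genes were named for their calls in these data, genes moved together within mice, and the ratios reuse counts of the same genes. No excess is therefore read from the count. In oldest-old GFP mice this was mouse 4, with Psmd8 at 370.9 CPM, Psmd4 at 220.1 CPM and Psme4 at 397.5 CPM. In oldest-old AAV-Kl mice it was mouse 2, with Psmb8 at 6.879 CPM, Psmb9 at 9.145 CPM, Psmb10 at 15.94 CPM and Psme2 at 25.4 CPM. The same mouse had the highest log2 ratios, -2.246 for Psmb8 to Psmb5, -3.353 for Psmb9 to Psmb6 and -2.079 for Psmb10 to Psmb7. In young sham mice it was mouse 1, with Psmb5 at 31.7 CPM and Psmd4 at 130.9 CPM. The others were Psmb8 in old GFP mouse 1 (2.424 CPM), Psmd9 in old GFP mouse 2 (15.5 CPM, the lowest) and Psmb6 in old AAV-Kl mouse 3 (96.81 CPM).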

How the results depend on the processing

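The counts below are of the 48 genes, first at an adjusted and then at an unadjusted p under 0.05. In oldest-old against young GFP mice, the 3 adjusted calls became 0 with no filter on low counts, 0 with only the groups compared, 0 without the young GFP libraries with skin transcripts, 5 with DESeq2 and 1 with the replicate block. They ranged from 0 to 4 when single libraries were left out. Of 17465 genes, DESeq2 called 1442 higher and 1457 lower, and the replicate block 1260 higher and 775 lower. With no filter on low counts, 945 of 36370 genes were higher and 618 lower. With only the groups compared, 797 of 16067 were higher and 452 lower. Without the skin libraries, 342 of 18269 were higher and 281 lower. Psmd8 and Psmd4 lost their call under the replicate block (adjusted p = 0.0628 and 0.0629, edgeR), and Psmg1 kept it. Psmd4 also lost it with DESeq2 size factors (0.0632) and, with Psmg1, under the first strand column (0.0777 and 0.0645), although 3 genes were called in each. Deviations from the group mean had correlations of -0.226 to 0.132 between same-numbered libraries among GFP and AAV-Kl groups. In oldest-old AAV-Kl against GFP mice they were all negative (-0.226 to -0.116). With 4 libraries in a group, these values cannot show whether the numbers pair the mice. The 13 unadjusted calls became 8 with only the groups compared and 5 without the skin libraries, and ranged from 7 (without young GFP mouse 3; 8 without oldest-old GFP mouse 4) to 13. The share called over all genes was 26.2% with only the groups compared, 20.7% without the skin libraries and 26.5% without young GFP mouse 3.

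In old against young GFP mice, only the groups compared gave 1 adjusted and 6 unadjusted calls (12.5%). Of 15960 genes in that fit, 741 were higher and 534 lower after adjustment, and 24.8% were called before it. The 1 unadjusted call became 2 with DESeq2, DESeq2 size factors, the replicate block, the first strand column or all 24 libraries, became 3 without the liver libraries, and ranged from 1 to 3 (2 and 3 without young GFP mouse 1 and 2). The share over all genes was 18.1% with DESeq2 and 13.1% without the liver libraries. Without old GFP mouse 2 or 3, young GFP mouse 4 or the skin libraries, the 1 call was a lower gene and not Psmd5. In oldest-old against old GFP mice the unadjusted count ranged from 0 to 2 (2 without oldest-old GFP mouse 1, 1 without mouse 2 or 4). Over all genes 10.8% were called without mouse 1, 15% without mouse 2 and 6.36% without mouse 4. In oldest-old AAV-Kl against GFP mice, 5 became 3 (first strand column), 1 (only the groups compared) and 16 (without both oldest-old libraries that stood apart), and ranged from 3 (without GFP mouse 1 or 4) to 7. The share over all genes was 7.21% with the first strand column, 3.7% with only the groups compared and 4.97% without both libraries. In the interaction, 1 became 2 with the replicate block, DESeq2 or without both libraries, and ranged from 0 (without old GFP 3, old AAV-Kl 2, oldest-old GFP 4 or oldest-old AAV-Kl 1 or 3) to 2 (without old GFP 2, oldest-old GFP 3 or oldest-old AAV-Kl 2 or 4). Over all genes 5.1% were called with the replicate block, 5.09% with DESeq2 and 4.83% without both libraries. In young GFP against sham mice, 1 became 4 with DESeq2, DESeq2 size factors or without the skin libraries, 3 with no filter, 2 with the first strand column and 5 with only the groups compared, and ranged from 1 to 14 (14 without young sham mouse 1, 3 without young GFP mouse 1 or 3, 2 without young GFP mouse 2 or young sham mouse 3). The share over all genes was 14.3% with DESeq2, 19.1% with only the groups compared and 19.1% without young sham mouse 1. The cause of these shifts was not tested.

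No immunoproteasome difference passed adjustment, and some changed sign. Psmb10 in oldest-old AAV-Kl against GFP mice had an unadjusted p of 0.0430 without oldest-old AAV-Kl mouse 3 (edgeR, log2 0.49, adjusted p = 0.676). For old against young GFP mice, Psmb10 (log2 0.00) was at -0.0135 with DESeq2 size factors, -0.0136 with DESeq2, -0.0298 with the first strand column, -0.0076 with only the groups compared and -0.0801 without the liver libraries, and Psmb8 at -0.1326 and -0.0671 with the first strand column and without the liver libraries. For oldest-old against old GFP mice, Psmb10 was at 0.0207 and 0.0119 under the same choices. Without both oldest-old libraries that stood apart, the AAV-Kl differences were -0.1717 (Psmb8), -0.2445 (Psmb9) and -0.0347 (Psmb10). With the first strand column the log2 ratio differences were 0.0124 (Psmb8 to Psmb5) and 0.201 (Psmb9 to Psmb6) for AAV-Kl in oldest-old mice and -0.0052 (Psmb10 to Psmb7) for old against young.

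Leaving out single libraries gave these ranges. For old against young GFP mice, Psmb8 ran from -0.1246 to 0.5149, Psmb9 from -0.0551 to 0.5361 and Psmb10 from -0.0926 to 0.0351. For AAV-Kl in oldest-old mice they ran from -0.4895 to 0.6267, -0.6063 to 0.791 and -0.0521 to 0.4929. For oldest-old against old, Psmb8 ran from -0.0336 to 0.5056 and Psmb10 from -0.0858 to 0.0218. For AAV-Kl in old mice, Psmb10 ran from -0.1163 to 0.1517. The log2 ratio differences ran, for old against young, from -0.0343 to 0.538 (Psmb8 to Psmb5), -0.0556 to 0.638 (Psmb9 to Psmb6) and -0.0851 to 0.1099 (Psmb10 to Psmb7). For AAV-Kl in oldest-old mice they ran from -0.5211 to 0.2067, -0.6392 to 0.2804 and -0.199 to 0.3271. Psmb8 to Psmb5 ran from -0.0884 to 0.468 for oldest-old against old and from -0.0218 to 0.6872 for AAV-Kl in old mice. Psmb10 to Psmb7 ran from -0.0446 to 0.1503 for oldest-old against young, -0.0059 to 0.1213 for oldest-old against old and -0.1686 to 0.1292 for AAV-Kl in old mice.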
